A study of Mus musculus with 8 samples.

Results

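The box C/D small nucleolar RNAs (snoRNAs) encoded in the introns of Gas5 were followed in cultured mouse blood progenitors with and without the leukaemia fusion MLL-ENL. Members were the rows of the deposited table named Snord, in either case, with the number 44, 47, 74, 75, 76, 77, 78, 79, 80 or 81. The rule found 7 rows among 964: SNORD44.1, Snord47, SNORD74.1, SNORD75.1, SNORD78.1, SNORD79.1 and SNORD81.2, called Snord44 to Snord81 below. Row names are given without the transcript suffix. No row analysed here had the number 76, 77 or 80. The choice used names only, and no level was required, but it was made with earlier results of these data known.

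Small RNA was sequenced from GMLPs (granulocyte-monocyte-lymphoid progenitors) sorted from mouse bone marrow, 4 libraries of wild-type (WT) genotype and 4 of genotype iMLL-ENL, an inducible form of the fusion of the histone methyltransferase MLL with ENL, a subunit of the super elongation complex. Both groups, WT included, were cultured for 3 days with doxycycline, the drug that induces such transgenes. The promoter that drives the transgene, the strain and the age of the mice are not stated by any source used here. The labels do not say whether the libraries of a group came from separate mice, so the spread between them may be technical. The rows are small non-coding RNAs, none of which marks GMLPs or checks the transgene.

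Gas5 (growth arrest-specific 5) is a non-coding gene whose spliced RNA starts with a terminal oligopyrimidine tract, is drawn into translation-dependent decay and accumulates when growth stops. Its introns are the lasting product in growing cells: each snoRNA is trimmed from a spliced-out intron and bound by fibrillarin, Nop56 and Nop58. Box C and box D, short motifs near the ends of the RNA, fold together to hold these proteins. The stretch just before box D, or before an internal copy of it, pairs with ribosomal RNA and marks the base whose ribose is methylated. Snord44 directs this to the small-subunit ribosomal RNA, and Snord47, Snord75, Snord78, Snord79 and Snord81 to the large-subunit ribosomal RNA. The human counterpart of Snord44 is used as a reference RNA in miRNA assays.

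In GENCODE release M21 on GRCm38, Gas5 spans 161034422 to 161038539 on the plus strand of chromosome 1. The transcript Gas5-224, which has the most exons of its lincRNA transcripts, has 12 exons, and 9 of its 11 introns hold an annotated snoRNA gene. These 10 genes (2 overlapping genes are both named Snord80) are 60 to 84 bases long. Of the 7 rows, Snord47 and Snord78 match a gene name there. The other 5 rows match none and are assigned to Gas5 by their snoRNA number only, and the number after the point in SNORD81.2 leaves room for another gene of that name in the annotation behind the table. Both matched snoRNAs are shown in full as DNA, 5′ to 3′, with the box C core TGATG and box D (CTGA) in capitals, because these 2 motifs define the class:
Snord78 (chr1:161036984-161037049, plus strand, 66 bases, intron 6): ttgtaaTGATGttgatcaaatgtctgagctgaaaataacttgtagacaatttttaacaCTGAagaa
Snord47 (chr1:161038082-161038158, plus strand, 77 bases, intron 10): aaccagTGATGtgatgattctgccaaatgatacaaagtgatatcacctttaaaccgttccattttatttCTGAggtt
Snord78 ends 74 bases before the end of its intron and Snord47 ends 66 bases before the end of its intron. Over the 10 genes this distance ran from 65 to 314 bases. On the transcript strand all 10 genes had TGATG within their first 20 bases and CTGA within their last 20 bases, against 23.7% of the 1507 annotated mouse snoRNA transcripts of every class, a description of the letters and not a test of function. The 100 bases around the Gas5 start are shown because the snoRNAs in its introns are cut from the transcript that begins there. They read as follows in RefSeq's GRCm38.p6, with the pyrimidine run at the start in capitals:
Gas5 start (chr1:161035116-161035215, plus strand): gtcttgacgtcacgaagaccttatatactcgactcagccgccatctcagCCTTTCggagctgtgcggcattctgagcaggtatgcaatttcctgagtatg
The run is 6 bases long, from 1 base before the start annotated in RefSeq to 4 bases after it. GENCODE starts the transcript Gas5-224 at another base, 161035163, an a just upstream of the run. By that annotation the RNA does not begin within the run.

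**Figure D1:**
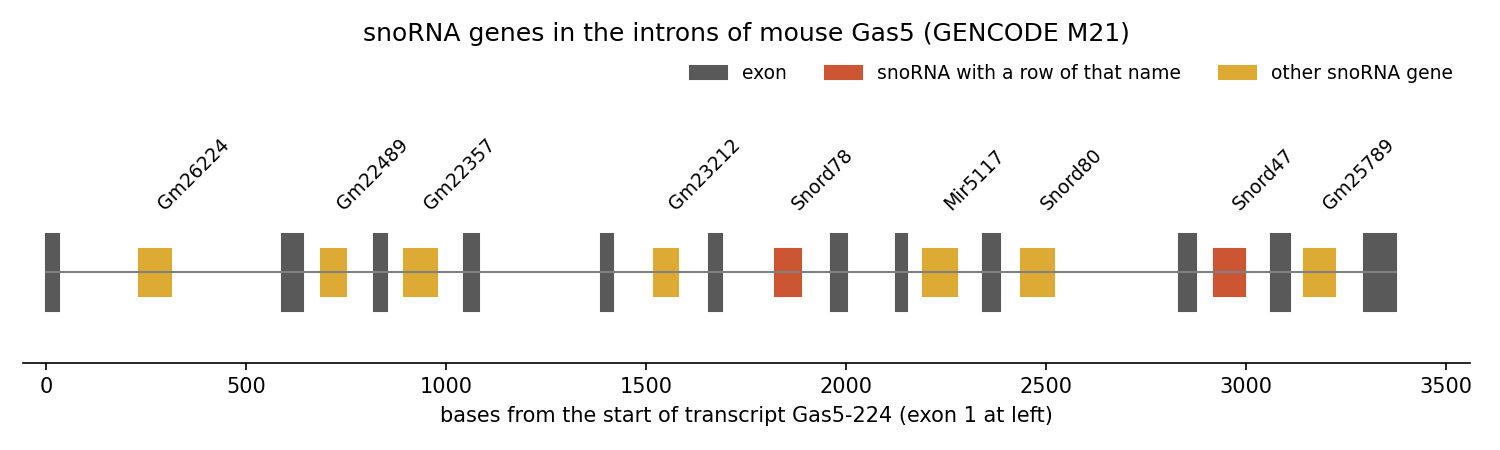
Map of transcript Gas5-224 in bases from its start, with 12 exons in grey, the snoRNA genes that share their name with a row of the table in red and the other snoRNA genes in yellow (Snord80 drawn once). Each of 9 introns holds a snoRNA gene, and most lie close to the downstream exon.

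Values are RPM, reads scaled to a total of 1000000. All rows together held 30.001% to 38.45% of that total in the WT libraries and 25.97% to 29.19% in the iMLL-ENL libraries, without overlap. Most of the total thus lay outside the rows, and RPM fold changes are not relative to the rows alone. Scaling to the total of all rows, given below, takes out this difference between the groups. What made up the rest of the total was not tested. If the step between values is taken as 1 read, 1 read was worth 0.108 to 0.169 RPM and 3 reads 0.32 to 0.51 RPM. A library was then scaled from 5.91e+06 to 9.27e+06 reads. These are estimates, because the smallest value was a single step in only 2 of 8 libraries. The members had an estimated 374 to 18039 reads per library, so by this estimate counting error was small beside the spread between libraries. WT replicate 2 stood apart from its group over the tested rows, with a mean correlation of 0.908 against 0.955 to 0.968 for the other WT libraries. Tests used limma on log2(RPM + 1) over the 633 rows with at least 10 RPM in 4 or more libraries, which all 7 members passed, with two-sided Benjamini-Hochberg adjusted p-values. Fold changes are log2 differences on that scale, iMLL-ENL minus WT, with their standard error (SE).

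Snord44 rose in iMLL-ENL cells, and none of the other 6 members passed the test. Of all tested rows 28.9% passed it, 20.4% higher and 8.53% lower in iMLL-ENL, so 1 member in 7 is no more than the background. The median log2 fold change was 0.25 over the 7 members, 0.28 over the 121 other tested rows named Snord and 0.31 over all tested rows. The members as a group thus moved about as the other Snord rows did, of which 24 rose and 1 fell. The figures over all tested rows mix classes that differed, with medians of -0.02 over 278 tRNA rows and 0.46 over 147 snRNA rows. At an unadjusted limma p under 0.05 there were 3 members, Snord44, Snord47 and Snord79, against 43.9% of tested rows. A change in RNA per cell cannot be told apart here from a change in which cells were in culture.

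Snord44 was at 1135, 1006, 997 and 1313 RPM in WT replicates 1 to 4 and at 2087, 1772, 2052 and 2159 RPM in iMLL-ENL replicates 1 to 4. Every iMLL-ENL library lay above every WT library, which was so, in that direction, for 27.2% of tested rows. The means were 1113 ± 148 and 2017 ± 169.7 RPM (SD, n = 4), a ratio of 1.81. The log2 fold change was 0.86 ± 0.17 (SE; limma adjusted p = 0.0099), and 58 tested rows had a higher one. Without each library in turn it stayed between 0.81 and 0.95, with limma adjusted p up to 0.036. Without WT replicate 2, the library that stood apart, it was 0.82 ± 0.14 (SE), and the other 6 members still missed the test, while 56.6% of tested rows passed it (41.1% higher in iMLL-ENL).

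Snord47 and Snord79, both guides for the large-subunit ribosomal RNA, had the next highest fold changes among the members, with overlapping groups. Snord47 was at 267, 206, 199 and 333 RPM in WT and at 335, 325, 349 and 353 RPM in iMLL-ENL. WT replicate 4 was the library that reached the iMLL-ENL range. The log2 fold change was 0.47 ± 0.18 (SE; limma adjusted p = 0.074), with a 95% interval of 0.07 to 0.87, and it was 0.61 without WT replicate 4 (limma adjusted p = 0.020), where 24.3% of tested rows rose. Snord79 was at 399, 363, 294 and 464 RPM in WT and at 501, 439.9, 483 and 596 RPM in iMLL-ENL. Here iMLL-ENL replicate 2 fell below WT replicate 4. The log2 fold change of Snord79 was 0.42 ± 0.18 (SE; limma adjusted p = 0.096), with a 95% interval of 0.02 to 0.82.

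Snord78 was at 146, 127, 85.7 and 143 RPM in WT and at 166, 133, 152 and 136 RPM in iMLL-ENL. The groups overlapped, and WT replicate 3 was the low library. Its log2 fold change was 0.25 ± 0.19 (SE; limma adjusted p = 0.32), with a 95% interval of -0.17 to 0.67.

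Snord81, Snord74 and Snord75 lay at nearly the same RPM in both groups. Snord81 was at 648, 641, 504 and 721 RPM in WT and at 659.8, 541, 590.0 and 645 RPM in iMLL-ENL. Its WT libraries enclosed all 4 iMLL-ENL libraries, and its log2 fold change was -0.04 ± 0.16 (SE; limma adjusted p = 0.89; 95% interval -0.40 to 0.32). Snord74 was at 265, 291, 245 and 312 RPM in WT and at 251, 219, 241 and 322 RPM in iMLL-ENL. Of these, iMLL-ENL replicates 2 and 3 were below every WT library and iMLL-ENL replicate 4 was above every WT library, and the log2 fold change was -0.12 ± 0.16 (SE; limma adjusted p = 0.61; 95% interval -0.47 to 0.23). Snord75 was at 111, 83.5, 63.2 and 116 RPM in WT and at 86.7, 79.8, 87.2 and 102 RPM in iMLL-ENL. The WT libraries again enclosed the others, with a log2 fold change of -0.04 ± 0.20 (SE; limma adjusted p = 0.91; 95% interval -0.49 to 0.42). The 3 intervals leave room for a fall of up to 0.49 and a rise of up to 0.42 on the log2 scale.

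**Figure D2:**
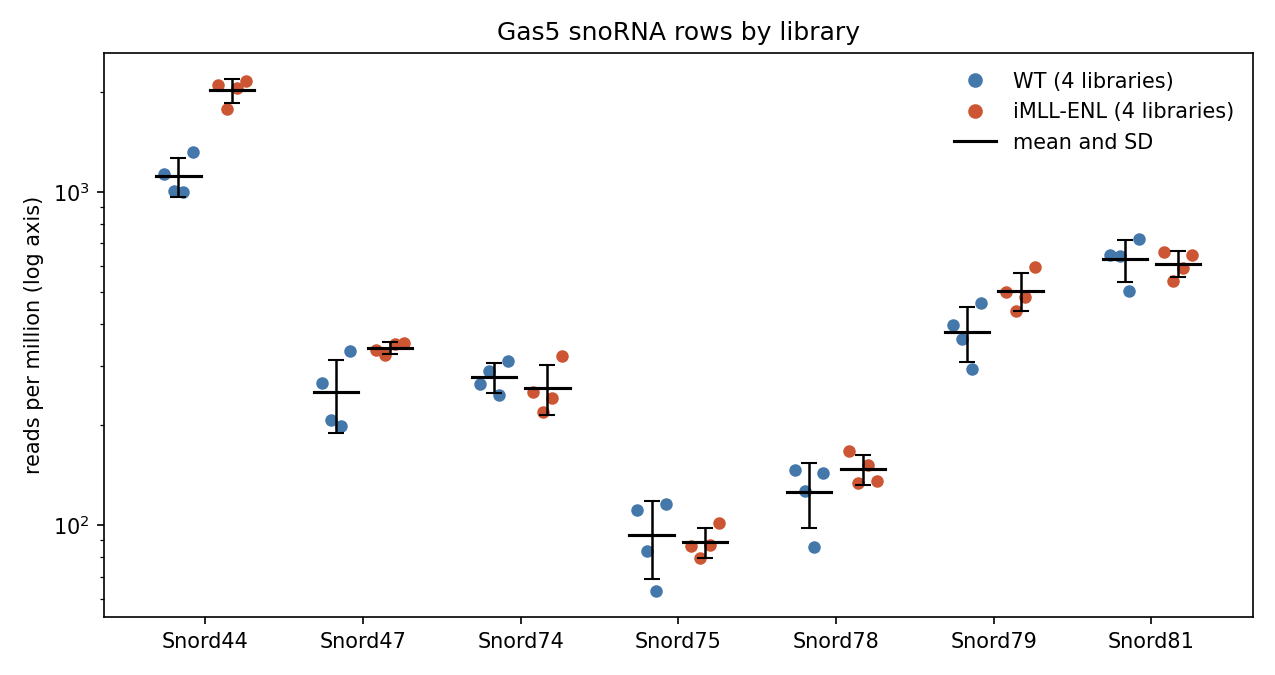
RPM (log axis) of the 7 Gas5 snoRNA rows in each of the 4 WT (blue) and 4 iMLL-ENL (red) libraries, with mean and SD. Snord44 alone has groups that do not overlap, 997 to 1313 RPM against 1772 to 2159 RPM.

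Per base of annotated length, which can be given for the 2 rows with a matched gene, Snord47 was at 3.26 ± 0.81 RPM per base in WT and 4.42 ± 0.17 in iMLL-ENL, and Snord78 at 1.90 ± 0.42 and 2.22 ± 0.23 (SD, n = 4). In each of the 8 libraries Snord47 had the higher value. Its undivided RPM was also higher in each, from 1.63 to 2.60 times that of Snord78. Whether reads in this small RNA preparation grow with length was not tested, and whole snoRNAs and fragments were not told apart. Neither value is therefore a measure of how many molecules of each were made. Levels of the other members are not compared with each other, because their lengths are not given with the rows.

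The summed reads of the 7 rows were 2971, 2717, 2387 and 3401 RPM in WT and 4086, 3509.5, 3954 and 4312 RPM in iMLL-ENL. The groups did not overlap, and the means were 2869 ± 428 and 3965 ± 338 RPM (SD, n = 4), a ratio of 1.38. No p-value is given for a sum over chosen rows. Snord44 made up most of this difference: the other 6 rows summed to 1756 ± 290.04 RPM in the WT and 1948 ± 174 RPM in the iMLL-ENL libraries, a ratio of 1.11 with overlapping groups. All rows named Snord together, the 7 included, stood at 14786 ± 2422 and 19194 ± 2601 RPM, a ratio of 1.298 with overlapping groups. Of these reads the 7 rows held 19.4% ± 0.6 in WT and 20.8% ± 1.4 in iMLL-ENL, with overlapping groups. Snord44 held 7.57% ± 0.54 and 10.57% ± 0.82, higher in every iMLL-ENL library. The other 6 rows held 11.9% ± 0.4 and 10.2% ± 0.6 (SD, n = 4), lower in every iMLL-ENL library. Overlap was not computed for sums of other sets of rows or for their shares of the Snord reads. The lack of overlap in the sum and in these shares thus has no background here. In RPM, 27.2% of single tested rows had every iMLL-ENL library above every WT library.

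The make-up of the Gas5 snoRNA reads differed between the groups, and this comparison is free of library scaling because it is made within a library. Snord44 held 38.2%, 37.0%, 41.8% and 38.6% of the summed reads in WT and 51.1%, 50.5%, 51.9% and 50.1% in iMLL-ENL. Its lowest iMLL-ENL share was well above its highest WT share. Snord81 held 21.8%, 23.6%, 21.1% and 21.2% in WT and 16.1%, 15.4%, 14.9% and 14.97% in iMLL-ENL, every iMLL-ENL library below every WT library. Snord74 (9.76% ± 0.85 in WT and 6.48% ± 0.65 in iMLL-ENL) and Snord75 (3.21% ± 0.46 and 2.24% ± 0.10) also had lower shares with no overlap (SD, n = 4). Snord47 (8.67% ± 0.93 and 8.61% ± 0.52), Snord79 (13.2% ± 0.6 and 12.7% ± 0.8) and Snord78 (4.35% ± 0.58 and 3.71% ± 0.40) overlapped. Shares of 1 total are tied, so that a higher share of Snord44 lowers the rest. Snord81, Snord74 and Snord75 had lower shares at nearly the same RPM in both groups. Shares in other sets of rows were not computed, so the lack of overlap has no background here. Among ratios of 2 other rows named Snord, 36.5% had groups that did not overlap.

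**Figure D3:**
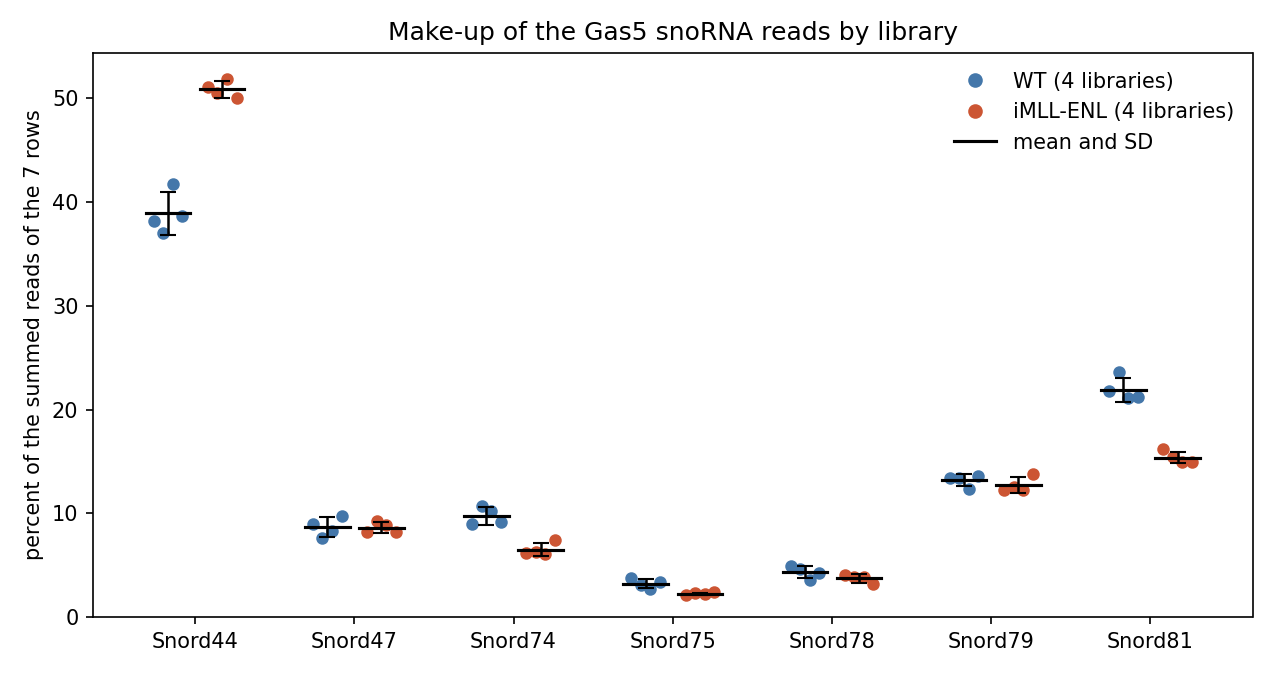
Percent of the summed reads of the 7 rows held by each row in each library (WT blue, iMLL-ENL red), with mean and SD. Snord44 goes from 37.0% to 41.8% in WT to 50.1% to 51.9% in iMLL-ENL, while the shares of Snord81, Snord74 and Snord75 are lower.

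Ratios of 2 members in a library are not tied in this way. The groups did not overlap in 12 of the 21 ratios (57.1%), against 36.5% of the 7260 ratios among the 121 other tested rows named Snord. The 6 ratios with Snord44, which all share 1 numerator, were among the 12. Snord44 over Snord81 was 1.75, 1.57, 1.98 and 1.82 in WT and 3.16, 3.27, 3.48 and 3.35 in iMLL-ENL, and Snord44 over Snord74 went from 4.01 ± 0.38 to 7.91 ± 0.82 (SD, n = 4). As a fold the smallest of the 6 rises was over Snord47, from 4.52 ± 0.51 to 5.92 ± 0.34, a ratio of 1.31. The remaining 6 ratios set Snord47 or Snord79 against Snord74, Snord75 or Snord81, and these were higher in iMLL-ENL for Snord47 and Snord79 in every library. Snord79 over Snord81 was 0.617, 0.566, 0.583 and 0.643 in WT and 0.76, 0.813, 0.819 and 0.923 in iMLL-ENL. Snord47 over Snord79, and the 3 ratios among Snord74, Snord75 and Snord81, had overlapping groups, and so had each of the 5 ratios of Snord78 with a member other than Snord44. Leaving out Snord44, 6 of 15 ratios (40%) did not overlap, close to the 36.5% among other Snord rows, so that order is no result about these members. No p-value is given for these ratios.

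Which members passed the test thus varied with how libraries were scaled. Over all tested rows the median log2 fold change was 0.31 on the deposited scale, 0.05 after TMM scaling (trimmed mean of M values), 0.09 after quantile normalization, 0.59 after scaling to the total of all rows and -0.04 after scaling to the snoRNA rows other than the 7. Snord44 was above 0 under all 5 and passed the test under 4 of them, with log2 fold changes of 0.595 (TMM, limma adjusted p = 0.028), 0.98 (quantile, 0.0078) and 1.15 (total of all rows, 0.0044). The shares of tested rows that rose were 10.4%, 11.1% and 39.7% under these 3 scalings. Set against the other snoRNA rows it was at 0.50 ± 0.17 (SE; limma adjusted p = 0.068), where 6% of tested rows rose and 16.9% fell. On that scale Snord74 fell by 0.48 on the log2 scale (SE 0.11; limma adjusted p = 0.016), and Snord81 and Snord75 were at -0.40 and -0.39 (limma adjusted p = 0.081 and 0.061). Snord74 was also lower after TMM scaling (-0.38, limma adjusted p = 0.036), where 16.4% of tested rows fell. Snord79 passed the test after quantile normalization (0.45, limma adjusted p = 0.035) and, with Snord47, after scaling to the total of all rows (0.71 and 0.75, limma adjusted p = 0.021 and 0.024).

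**Figure D4:**
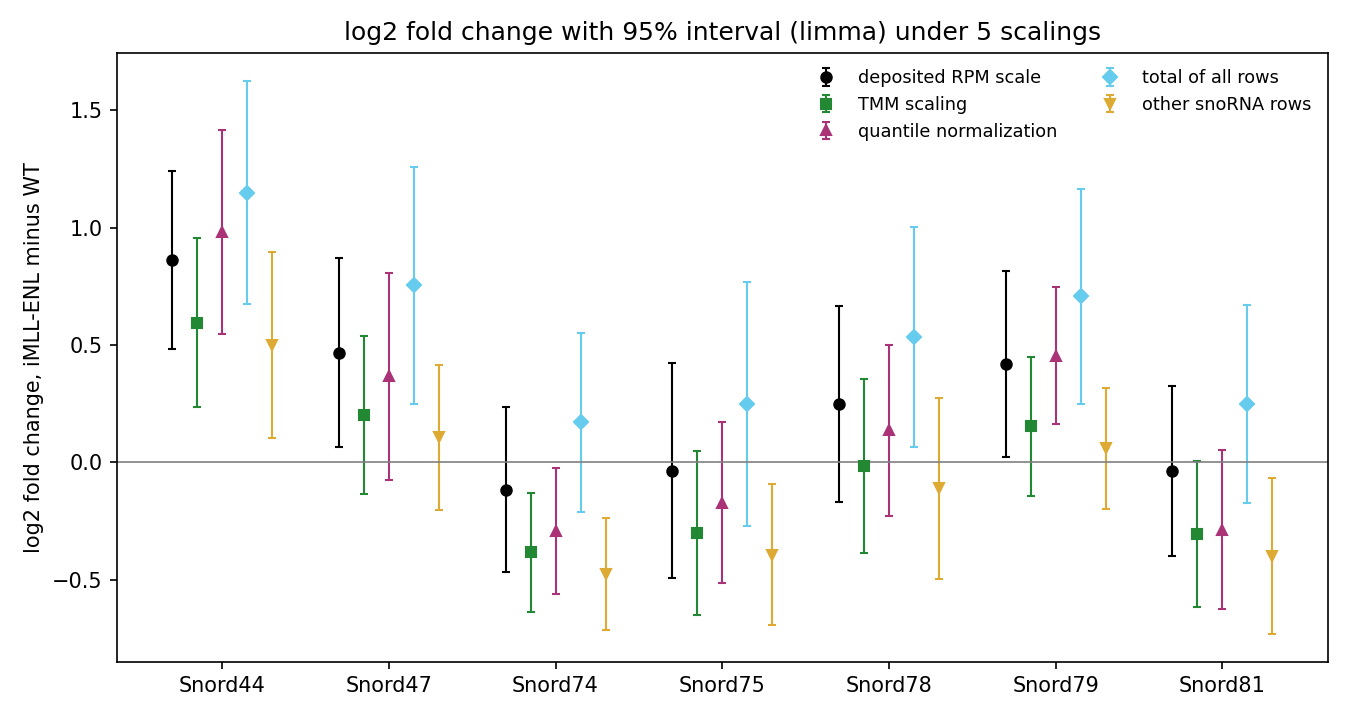
log2 fold change (iMLL-ENL minus WT) of the 7 rows with 95% intervals from limma under the deposited scale and 4 other scalings. Except for quantile normalization each scaling multiplies a library by 1 factor and so shifts all 7 rows nearly alike: Snord44 runs from 0.50 to 1.15 and Snord74 from -0.48 to 0.17.

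In the authors' deposited table, none of the 7 rows had a false discovery rate under 0.05, against 16.5% of its 964 rows, and none had a p-value under 0.05. The authors' deposited table gave log2 fold changes of 0.47 for Snord44 (false discovery rate 0.39), 0.05 for Snord47, 0.02 for Snord79, -0.15 for Snord78, -0.43 for Snord81, -0.45 for Snord75 and -0.51 for Snord74 (0.34). No source used here names the program behind these values.

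Within a group the members moved together from library to library. WT replicate 3 had the lowest WT value for all 7 members, and WT replicate 4 had the highest for 6 of them, all but Snord78. Among the iMLL-ENL libraries replicate 2 was lowest for all 7 and replicate 4 highest for 5. After the mean of each group was subtracted, the 21 pairwise correlations of log2 values over the 8 libraries ran from 0.31 (Snord74 with Snord78) to 0.94 (Snord75 with Snord79), with a median of 0.81. The libraries share a scaling, and other snoRNAs followed the same swings. The median correlation with the summed members was 0.78 for the 121 other tested rows named Snord and 0.27 for all 626 other tested rows. A correlation with the sum is another measure than the pairwise correlations, which were not computed among the other rows. The 3 rows closest to the sum were SNORD56.1 (r = 0.98), Snord82 (0.98) and SNORD48.1 (0.98), a description over 8 libraries. SNORD48.1 and Snord82 rose (log2 fold changes of 0.70 ± 0.15 and 0.70 ± 0.17, SE; limma adjusted p = 0.013 and 0.020), and SNORD56.1 was at 0.30 ± 0.18 (limma adjusted p = 0.21).

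Other box C/D snoRNAs made in sets from 1 host gene were counted alongside. Of the 7 tested rows of Snhg1, a non-coding host like Gas5, 3 rose and 1 fell, with a median log2 fold change of 0.18. The row with the largest change was SNORD30.1, which fell by 0.72 (SE 0.20; limma adjusted p = 0.029). Of the 5 rows of Rpl13a, a ribosomal protein gene, 1 rose and 0 fell, with a median of 0.48, led by Snord34 at 0.67 ± 0.21 (SE; limma adjusted p = 0.038). Among the other 109 tested rows named Snord, 20 rose and 0 fell with a median of 0.27, and SNORD97.1 had the largest change, 1.698 ± 0.210. Among 41 tested rows named Snora, the box H/ACA snoRNAs that guide pseudouridylation, 8 rose and 0 fell with a median of 0.53, led by SNORA51.4 at 1.26 ± 0.30 (SE; limma adjusted p = 0.017). These counts changed when 1 library was left out. No row of Snhg1 or Rpl13a rose without WT replicate 1 or 3 or any 1 of the 4 iMLL-ENL libraries. The fall of SNORD30.1 missed the test when WT replicate 1, or any of iMLL-ENL replicates 1, 2 and 3, was left out. Calls over all tested rows also went down in these fits, from 183 to between 59 and 117. The count of risers ran from 8 to 33 for the other Snord rows and from 0 to 20 for the Snora rows when each library was left out. The Gas5 count of 1 in 7 was not tested against these lists. The directions also moved with the scaling. After TMM scaling, and also against the other snoRNA rows, 0 rows of Snhg1 rose and 3 fell (medians -0.086 and -0.18), and 0 rows of Rpl13a rose or fell. Among the Snora rows 3 rose under each of these scalings, with 0 and 1 lower. After TMM scaling the rows named Snord other than the 7 split evenly, 16 higher and 16 lower of 121.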

How the data were processed

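Small RNA of 8 samples (4 WT, 4 iMLL-ENL) was prepared with the QIAseq miRNA kit, per the labels' protocols. The values were deposited by the authors as RPM, in a single table with 8 library columns: within each library 100% of them are whole multiples of 1 step within 0.0055, with no division by length although the table is labelled TPM. The deposited table also holds the authors' log2 fold change, mean log2 CPM, p-value and false discovery rate, per the file headers. The build was GRCm38, per the submitters' processing notes; the aligner, annotation, treatment of multiply mapped reads and molecular indexes, and filters are not stated in any source used here. Whole snoRNAs and fragments were not told apart.

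Rows were compared with limma 3.58.1 (R 4.3.3, statmod 1.5.0; trended, robust prior) on log2(RPM + 1), with adjustment over 633 rows at 0.05. The p-values measure only the spread between these samples. The alternatives were pseudocounts of 0.5 and 10, no filter, 4 scalings (TMM was unweighted, on the tested rows), each library left out, and a replicate block. Sums, shares and ratios were computed in Python 3.11.15 with pandas 2.3.3. All members are named; as other rows, the largest change of each list and the 3 rows most correlated with the sum. Members and lists were chosen with earlier results of these data known. Sequences and coordinates come from GENCODE M21 (transcripts) and RefSeq (Gas5 start).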

Additional observations from a re-analysis of the deposited data

Results flagged for a closer look

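The share of Snord74 in the summed reads was 7.46% in iMLL-ENL replicate 4, against 6.10% to 6.24% in the other 3 iMLL-ENL libraries. The gap to the nearest of them was 0.898 of the group's range, above Dixon's 95% critical value for 4 samples. It was 1 of 30 groups of values examined (RPM and share of each row, and the sum), and chance gives about 1 in 20. The share in that library was still below the lowest WT share, 8.92%.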

How the results depend on the processing

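The call of Snord44 held under both pseudocounts, without a filter, under TMM, quantile and all-row scaling and without each library. Among the alternatives run here it was lost only against the other snoRNA rows. The authors' deposited values did not call Snord44 either (false discovery rate 0.39). The number of members called was 2 after TMM scaling (1 higher, 1 lower), 2 after quantile normalization, 3 after scaling to the total of all rows, and 1 to 2 without each library. The log2 difference of the sum, 0.47, was 0.21 after TMM scaling, 0.76 after scaling to all rows, 0.11 against the other snoRNA rows (overlapping groups after TMM and here) and 0.39 to 0.56 without each library. Scaling to all rows turned Snord74 to 0.17, Snord75 to 0.249 and Snord81 to 0.25. Snord78 turned to -0.015 after TMM scaling and -0.11 against the other snoRNA rows. Without each library Snord75 ran from -0.21 to 0.080 (without WT replicate 4) and Snord81 from -0.14 to 0.032 (without WT replicate 4); no value that changed sign passed the test. Over all rows, 183 were called, 282 without a filter (of 964), 278 after scaling to all rows, and 59 (without WT replicate 1) to 358 (without WT replicate 2). Calls split 129 higher and 54 lower on the deposited scale, 66 and 104 after TMM scaling, 70 and 63 after quantile normalization, 251 and 27 after scaling to all rows and 38 and 107 against the other snoRNA rows. The cause was not tested.

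The labels do not say that a replicate number marks a shared animal or batch. Same-numbered libraries deviated together in 3 of 4 pairs (correlations 0.39, 0.29, -0.13 and 0.42), and 6 of 8 libraries correlated best with their own number, a hint of pairing from the data and not from the design. Because 1 pair had a negative correlation, the fit without a block was kept. With a replicate block 193 rows were called and Snord44 was at limma adjusted p = 0.017. It changed no call among the members. The planned count model on reads recovered from the steps was not run, because the smallest value was a single step in only 2 of 8 libraries.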
